A study of Mus musculus with 2 samples.

Results

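The interferon regulatory factors (IRFs) are transcription factors of interferon and innate immune signalling. The 8 members described here, Irf1, Irf2, Irf3, Irf4, Irf5, Irf7, Irf8 and Irf9, were taken by gene symbol from the 52636 gene rows of a deposited RNA-seq count table. Each symbol matched 1 row. RNA was sequenced from Hepa1-6 cells, a mouse liver cancer line whose strain is labelled C57bl/6. There were 2 stable lines with 1 library each. The vector line carried a control lentivirus with GFP and puromycin resistance, and the IRF8OE line carried a lentivirus for IRF8 overexpression with the same GFP and resistance label. Their libraries are called control and IRF8OE below. Both lines were exposed to lentivirus for 24 h and selected with 2 µg/ml puromycin. The promoter, the sequence and the species of the transgene, and whether each line was 1 clone, are not stated in the labels.

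IRFs bind DNA through a conserved tryptophan-rich domain that recognises repeats of the bases GAAA, the core of the interferon-stimulated response element (ISRE). Some members act early (Irf3 and Irf5 are activated by phosphorylation below pattern-recognition receptors), others are themselves induced by interferon (Irf1, Irf7), and Irf9 is the DNA-binding subunit of the interferon-activated complex ISGF3. Irf4 and Irf8 are best known from myeloid cells and lymphocytes, where they bind composite sites together with the ETS factor PU.1 or with BATF and AP-1 proteins. In hepatocytes, IRF1 is a classical mediator of the response to interferon-gamma.

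The libraries held 18118017 (control) and 20042660 (IRF8OE) counted reads. Without replicates no test between the lines was possible, and the intervals given are exact 95% intervals for counting error alone. Levels are CPM, read counts relative to the TMM-scaled library size, and a ratio is the IRF8OE level over the control level. A gene was measured when its mean was at least 1 CPM, which 12468 genes reached. It is called higher or lower when its ratio was at least 2, or at most the inverse, and the interval excluded 1. Of the measured genes 4.27% were higher and 3.64% lower by this rule (7.91% in all). Of the hepatocyte and hepatoma markers, 9 of 12 were measured, with a summed level of 5494 CPM in the control library and 3686 CPM in the IRF8OE library. Most of this came from the keratin genes Krt8 (2060 and 1404 CPM) and Krt18 (2273 and 1638 CPM). Of the 9 measured markers, 0 had a ratio above 1 and 3 were lower: Alb (200.1 and 75.1 CPM), Afp (272 and 127 CPM) and Trf (15.8 and 7.17 CPM). Apoa1, Ttr and Serpina1a did not reach the 1 CPM minimum, and the first and last of these had more counts in the IRF8OE library. Apoa1 had 3 counts in the control library and 15 in the IRF8OE library (ratio 4.15, 1.17 to 22.4). Serpina1a had 1 and 6 (ratio 4.98, 0.605 to 229), and Ttr had 2 and 0. Of 10 myeloid markers 3 were measured, with a summed level of 23.7 and 19.7 CPM. They were Csf1r (9.27 CPM in the control library and 8.89 in the IRF8OE library), Cd68 (11.2 and 7.65 CPM) and Lyz2 (2.36 and 2.73 CPM). Ptprc (CD45), which marks all blood leukocytes, had 7 counts in the control library and 5 in the IRF8OE library, and the macrophage marker Adgre1 had 0 in both. Of 8 lymphoid markers 7 had 0 counts in both libraries. Of 8 endothelial and stellate markers 3 were measured, summed 7.60 and 12.9 CPM: the pericyte marker Rgs5 was higher (2.92-fold, 2.10 to 4.12), as was the collagen gene Col1a1 (2.65-fold, 1.602 to 4.555), and the endothelial marker Vwf was lower (ratio 0.382, 0.222 to 0.638). The part of other cell types in the IRF values was not tested. In bulk RNA, fewer cells of a type and less RNA per cell cannot be told apart.

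None of the 7 measured members passed the 2-fold rule in either direction. Irf8 and Irf1 had ratios above 1 with intervals that excluded 1. Irf2 and Irf3 had ratios below 1 with intervals that excluded 1. Irf5, Irf7 and Irf9 had intervals that included 1, and Irf4 was barely counted. An interval that excludes 1 is common in libraries of this depth: 63.8% of all measured genes had one, 31.1% above 1 and 32.7% below. The 4 of 7 members with such an interval are therefore near the background share. At a 1.5-fold threshold, which 10.4% of measured genes passed as higher and 9.42% as lower (19.9% in all), the count of members was again 0.

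Promoter sequences are shown for the members whose window held a binding motif of the pathway. The motifs were elements by which interferon induces genes and the composite site of IRFs with an ETS factor. RefSeq windows on GRCm38.p6, 250 bases before to 50 after a transcription start, were matched for all 8 members, 11 windows in total. They were searched on both strands for the interferon-gamma activated element GAS (TTCNNNGAA), the ISRE core (GAAANNGAAA) and the ETS-IRF composite element (GGAANNGAAA). The GAS letters were found in Irf1, Irf2 and Irf8, against 8.30% of all 32851 windows and 9.55% of all gene symbols. The ISRE and composite letters, which overlap each other there, were found in Irf2, against 3.44% and 2.72% of all windows. Below are the 250 bases upstream of the first listed start of Irf8 (chr8:120736108-120736357, plus strand) and of Irf1 (chr11:53769764-53770013, plus strand), and the first 60 bases of the Irf2 window (chr8:46739495-46739554, plus strand). Capitals mark the motif letters.
Irf8: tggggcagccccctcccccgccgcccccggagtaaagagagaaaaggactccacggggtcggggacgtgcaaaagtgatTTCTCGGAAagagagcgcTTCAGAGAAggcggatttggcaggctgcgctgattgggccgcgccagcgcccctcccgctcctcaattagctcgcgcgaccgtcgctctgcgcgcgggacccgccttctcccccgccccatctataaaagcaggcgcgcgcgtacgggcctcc
Irf1: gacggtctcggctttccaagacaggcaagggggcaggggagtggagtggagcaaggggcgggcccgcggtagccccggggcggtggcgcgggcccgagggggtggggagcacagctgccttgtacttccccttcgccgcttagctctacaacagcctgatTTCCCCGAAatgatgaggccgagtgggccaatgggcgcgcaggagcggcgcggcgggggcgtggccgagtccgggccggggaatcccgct
Irf2: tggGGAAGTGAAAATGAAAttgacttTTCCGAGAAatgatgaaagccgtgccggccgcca
The Irf8 window held 2 GAS matches, which begin 171 and 153 bases before the start. The Irf1 match begins 90 bases before it. The Irf2 window held a GAS match that begins 224 bases before the start and the overlapping ISRE and composite matches just upstream of it. A match describes these letters only and does not show a bound factor. The 3 members with GAS letters did not share a direction, with ratios of 1.22 for Irf8, 1.31 for Irf1 and 0.871 for Irf2.

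Irf8, the overexpressed gene and a lineage factor of monocytes and dendritic cells (ENSMUSG00000041515, plus strand of mm10 chromosome 8, 120736358 to 120756694), had 1010 counts in the control library and 1486 in the IRF8OE library. Its level was 58.2 CPM (54.6 to 61.9) against 71.1 CPM (67.5 to 74.8), and these intervals did not overlap. The ratio of 1.22 (1.13 to 1.32) was small beside the spread of other genes: 24.9% of measured genes had a ratio at least as high, and 2003 measured genes (16.1%) had a ratio inside the Irf8 interval. The Irf8 counts may or may not include reads of the transgene, whose sequence is not stated, and such reads and those of the endogenous transcript cannot be told apart in gene counts. The mean Irf8 level over both libraries lay above that of 69.5% of measured genes. A second gene model, Gm20388, spans the whole of Irf8 on the same strand, shares 0 exon bases with it and had 0 counts in both libraries.

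Irf4, the relative of Irf8 that drives plasma cell and T helper programmes (ENSMUSG00000021356, chromosome 13, 30749226 to 30766976, plus strand), was not counted in the control library (0 counts), where 3 counts would equal 0.173 CPM. It had 1 count in the IRF8OE library (0.0478 CPM, 0.00121 to 0.266). It was the 1 member that did not reach the 1 CPM minimum, and its level could not be compared at this depth.

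Irf1, an activator induced by interferon-gamma (ENSMUSG00000018899, chromosome 11, 53770014 to 53778374, plus strand), was counted 600 times in the control library and 948 times in the IRF8OE library. These equal 34.6 CPM (31.8 to 37.4) and 45.3 CPM (42.5 to 48.3), a ratio of 1.31 (1.18 to 1.46), and 18.8% of measured genes had a ratio at least as high. Irf2, which competes with Irf1 at the same sites and can repress them (ENSMUSG00000031627, chromosome 8, 46739732 to 46847458, plus strand), had 506 and 531 counts, or 29.1 CPM (26.7 to 31.8) in the control library and 25.4 CPM (23.3 to 27.6) in the IRF8OE library. Its ratio was 0.871 (0.770 to 0.986), and 30.8% of measured genes had a lower one. The levels of Irf1 did not overlap between the libraries within counting error, whereas those of Irf2 did.

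Irf3, the constitutively expressed factor that turns on Ifnb1 after phosphorylation by TBK1 (ENSMUSG00000003184, chromosome 7, 44997648 to 45002848, plus strand), was counted 952 times in the control library and 1006 times in the IRF8OE library. These equal 54.8 CPM (51.4 to 58.4) and 48.1 CPM (45.2 to 51.2), a ratio of 0.878 (0.802 to 0.960), and the levels did not overlap. Irf7, the interferon-induced amplifier of type I interferon genes (ENSMUSG00000025498, chromosome 7, 141262706 to 141266481, minus strand), had 41 and 45 counts, the fewest of the measured members. Its level was 2.36 CPM (1.69 to 3.20) in the control library and 2.15 CPM (1.57 to 2.88) in the IRF8OE library, and the ratio of 0.911 had an interval from 0.584 to 1.43 that allows a change in either direction. Irf5, which acts below MyD88 on inflammatory cytokine genes (ENSMUSG00000029771, chromosome 6, 29526625 to 29541871, plus strand), had 142 and 185 counts. Its level was 8.18 CPM (6.89 to 9.64) against 8.85 CPM (7.62 to 10.2), a ratio of 1.08 (0.865 to 1.36). With the trend of the ratio on expression level removed, the Irf5 ratio was 0.981, so its direction was not stable.

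Irf9 (ENSMUSG00000002325, chromosome 14, 55603571 to 55610030, plus strand), the ISGF3 subunit, had 153 counts in the control library and 155 in the IRF8OE library. Its level was 8.81 CPM (7.47 to 10.3) against 7.41 CPM (6.29 to 8.68), and the ratio was 0.841 (0.669 to 1.06). The levels of Irf5, Irf7 and Irf9 overlapped between the libraries within counting error. No share of all measured genes is given for this overlap, so it has no background here. The scaling changed some of these intervals. With total-count scaling, which raised the median log2 ratio of all measured genes from 0.01 to 0.13, the ratios of Irf2 (0.949, 0.838 to 1.07) and Irf3 (0.955, 0.873 to 1.04) no longer had intervals below 1, while Irf8 was at 1.33 and Irf1 at 1.43.

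**Figure D1:**
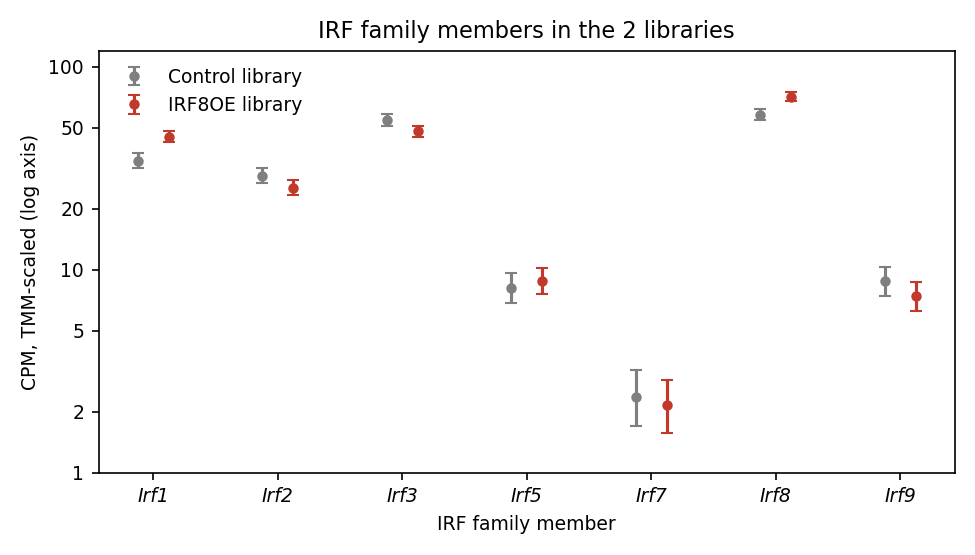
Levels of the 7 measured IRF members in CPM on a log axis, 1 library per group, with exact 95% Poisson intervals. The intervals do not overlap between the libraries for Irf8 (58.2 and 71.1 CPM) and Irf1 (34.6 and 45.3 CPM), which are higher in the IRF8OE library, and for Irf3 (54.8 and 48.1 CPM), which is lower. The share of all measured genes without such overlap is not given. By another criterion, 63.8% of them had a ratio interval that excluded 1.

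**Figure D2:**
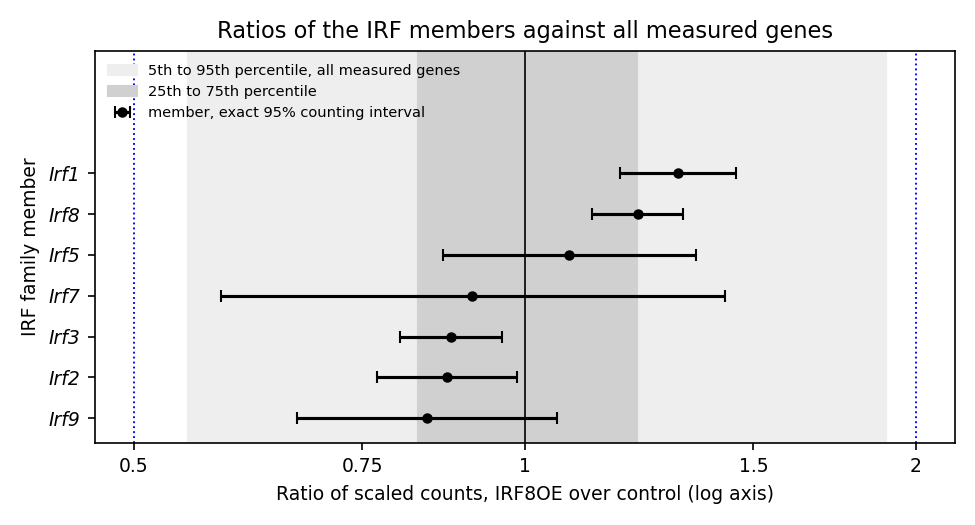
Ratios of the members (IRF8OE over control, log axis) with exact 95% counting intervals, over bands for the 5th to 95th and 25th to 75th percentile of all 12468 measured genes. Dotted lines mark 2-fold, and each member lies inside them and inside the wider band, which runs from 0.551 to 1.90.

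Comparisons within the family do not depend on how the libraries are scaled. Irf8 took 29.7% of the 3404 counts on the 8 members in the control library (exact Clopper-Pearson 28.1 to 31.2) and 34.1% of the 4357 in the IRF8OE library (32.7 to 35.5). Irf1 took 17.6% (16.4 to 18.9) and 21.8% (20.5 to 23.0), and Irf3 took 28.0% (26.5 to 29.5) and 23.1% (21.8 to 24.4). Of the 21 pairs of measured members, 6 had ratios that differed beyond counting error (conditional odds ratio, exact 95% interval not adjusted for the number of pairs). Over all pairs of measured genes, by an approximate interval that also gave 6 for the members, 61.6% differed. The 6 member pairs set Irf1 or Irf8 against Irf2, Irf3 or Irf9. The Irf1 ratio was 1.51 times that of Irf2 (1.28 to 1.77) and 1.56 times that of Irf9 (1.21 to 2.01). The Irf8 ratio was 1.45 times that of Irf9 (1.14 to 1.85), and the Irf2 and Irf3 ratios were 0.713 (0.615 to 0.827) and 0.718 (0.636 to 0.811) of that of Irf8. Irf1 against Irf8 gave 1.07 (0.941 to 1.23), an interval that included 1, so a difference between these ratios was not detectable at this depth. Unlike the shares and pairs above, a ratio of summed counts does depend on the scaling. With TMM scaling, the summed counts of the 7 members other than Irf8 had a ratio of 0.996 (0.943 to 1.05). No value of this ratio is given for the other scalings.

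Levels can be compared between members only per length. Divided by the gene length listed in the table, which equals the union of all annotated exons in GENCODE M21 for each of the 8 members, Irf3 had the highest level in both libraries, at 15.9 CPM per kilobase (14.9 to 17.0) in the control library and 14.0 (13.1 to 14.9) in the IRF8OE library. Irf1 and Irf8 followed, at 8.69 (8.01 to 9.41) and 8.24 (7.74 to 8.77) CPM per kilobase in the control library, which overlapped, and at 11.4 (10.7 to 12.2) and 10.1 (9.57 to 10.6) in the IRF8OE library, which did not. Below these came Irf2 at 3.94 and 3.43, Irf5 at 2.81 and 3.05, Irf9 at 1.64 and 1.38, and Irf7 at 0.625 and 0.570 CPM per kilobase in the control and IRF8OE libraries. Irf2 and Irf5 overlapped in the IRF8OE library and not in the control library. The exon union is long where minor transcripts add exons: it is 7055 bases for Irf8 against 2847 for its principal transcript Irf8-201 (9 exons, 55.3% untranslated), and 3442 against 2031 bases for Irf3. With principal transcript lengths, a choice made after the data were seen, Irf8 came first in the IRF8OE library at 24.96 CPM per kilobase (23.7 to 26.3), overlapping Irf3 at 23.7 (22.2 to 25.2). In the control library Irf3 then came first at 27.0 (25.3 to 28.8) and Irf8 second at 20.4 (19.2 to 21.7).

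**Figure D3:**
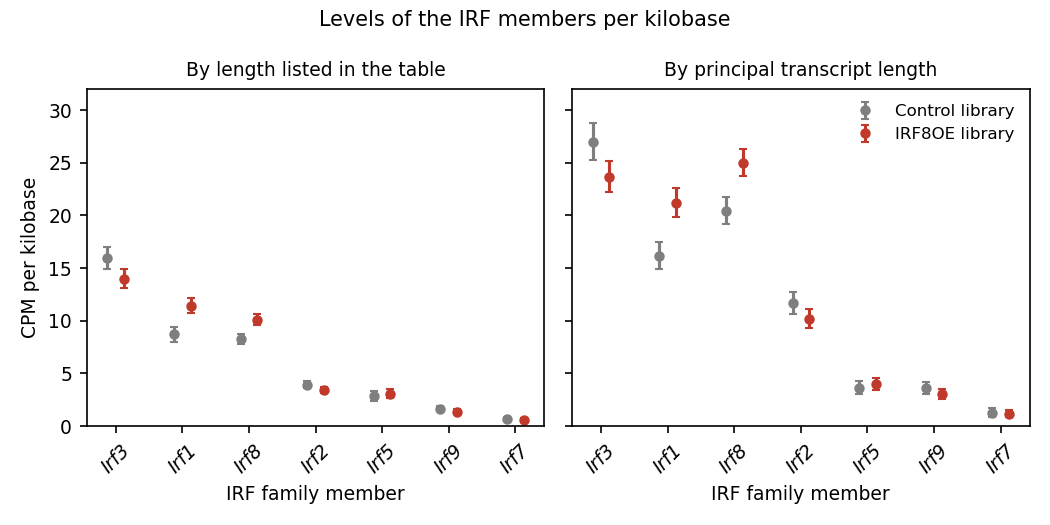
Levels of the 7 measured members in CPM per kilobase with exact 95% Poisson intervals, by the length listed in the deposited table (left) and by the length of the principal GENCODE M21 transcript (right). Irf8 in the IRF8OE library rises from 10.1 to 24.96 CPM per kilobase between the panels, and its rank from 3 to 1.

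Reads of related or overlapping genes can be miscounted, and the members were checked for both. No pair of members shares a 32-base word in their principal transcripts, and the share of such words found in any other annotated gene was 0% for Irf2, Irf3, Irf4, Irf5, Irf7 and Irf8, 3.32% for Irf1 and 3.38% for Irf9. Irf5 shares 411 exon bases (14.1% of its exons) with Tnpo3, a nuclear import receptor gene on the opposite strand with 118 CPM in the control library and 136 in the IRF8OE library. The sources do not give the strand setting of the counting, so Irf5 reads there cannot be told from Tnpo3 reads. Irf3 shares 88 exon bases with Bcl2l12, Irf7 shares 45 with Phrf1, Irf9 shares 123 with Rnf31 and Irf1 shares 135 with Gm17334. Each is at most 3.40% of the member's exons. Gm31172, Gm45479 and Gm45481 lie within the Irf2 span, share 0 exon bases with it and had at most 3 counts.

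The members with the highest ratios, Irf8 and Irf1, were set against the genes around them. Within 1 Mb of Irf8, 14 other protein-coding genes were measured, with ratios from 0.439 to 1.15 and a median of 0.855, and 0 of them had a ratio above that of Irf8. The nearest on either side were Cox4i1, a respiratory chain subunit gene, at 0.693 (0.675 to 0.711), and Mthfsd at 1.15 (1.05 to 1.26), whose interval overlaps that of Irf8. Within 1 Mb of Irf1, 17 other genes were measured with a median ratio of 1.29, and 8 of them had a ratio above that of Irf1. The median log2 ratio of all measured protein-coding genes was -0.09 on chromosome 8 (618 genes besides Irf8) and 0.13 on chromosome 11 (940 besides Irf1). With the median of each gene's chromosome removed, the Irf1 ratio was 1.20 and the Irf8 ratio was 1.30.

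**Figure D4:**
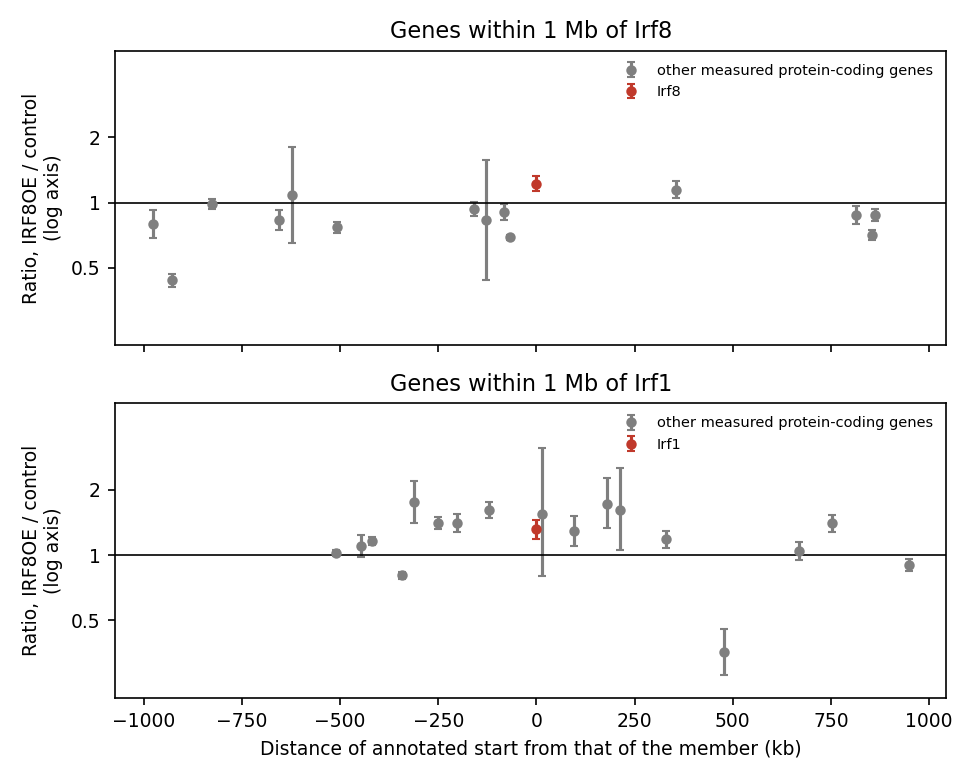
Ratios (IRF8OE over control, log axis) of measured protein-coding genes within 1 Mb of Irf8 (top) and Irf1 (bottom) against the distance of their starts in kb, with exact 95% counting intervals. Irf8 (red) lies above the point values of all 14 neighbours, and Irf1 lies among its 17, of which 8 are higher.

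The pathway around the family was described with 8 lists of 124 different genes, of which 88 were measured, 13 of them higher and 7 lower (median log2 ratio 0.17, against 0.01 over all measured genes). Over all measured genes 4.27% were higher and 3.64% lower, which is the background for each list below. Interferon ligands were not detectable. Of 10 genes, Ifnb1, Ifng and 6 others had 0 counts in both libraries, and Ifna2 and Ifnk had at most 2. All 12 interferon receptor and JAK-STAT genes were measured and 0 were higher or lower (median log2 ratio -0.12). The 6 receptor chains all had ratios below 1, from 0.730 to 0.864, and 5 had intervals below 1. Of all measured genes, 32.7% had an interval below 1. With total-count scaling their highest ratio was 0.941. With the median of each gene's chromosome removed, 4 of the 6 chains were below 1 and 2 had intervals below 1. Ifnar1, a chain of the type I receptor, was at 0.730 (0.678 to 0.786), and at 0.929 (0.863 to 1.00) relative to its chromosome. Ifngr1, the ligand-binding chain for interferon-gamma, was at 0.828 (0.776 to 0.884), and at 0.927 (0.868 to 0.990) relative to its chromosome. Their kinase gene Jak1 was at 1.19 (1.11 to 1.27). Stat2, which encodes an ISGF3 subunit, was at 1.58 (1.28 to 1.95, 139 and 264 counts).

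Of 19 sensors, adaptors and kinases upstream of IRF3, IRF5 and IRF7, 15 were measured, 2 higher and 0 lower (median 0.26). The higher genes were the double-stranded RNA sensors Tlr3, with 23 counts in the control library and 81 in the IRF8OE library (2.92-fold, 1.82 to 4.87), and Ifih1, with 95 and 270 (2.36-fold, 1.86 to 3.01). Tmem173 (STING) was at 1.31 (1.22 to 1.42), the IRF3 kinase gene Tbk1 at 1.10 (1.01 to 1.20) and the adaptor gene Mavs at 0.990 (0.910 to 1.08).

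The list of 12 DNA-binding partners and coactivators held 6 measured genes and 6 under the 1 CPM minimum. Spi1, which encodes PU.1, a partner of IRF8 in blood cells, had 17 counts in the control library and 2 in the IRF8OE library (ratio 0.0977, 0.0109 to 0.412). With 1 CPM added to each level its ratio was 0.554. Batf3 had 0 and 1. Of the 6 measured genes 0 were higher or lower (median -0.33). They included the DNA-binding factors Tcf3, with a level of 229 CPM in the control library and 189 in the IRF8OE library, and Etv6, with 47.7 and 55.6 CPM, both named after their values were seen. Among 11 corepressors, feedback inhibitors and turnover factors, all measured, 1 was higher and 2 lower (median -0.13). Irf2bp2, an IRF2-binding corepressor, fell from 420 to 199.5 CPM (7302 and 4172 counts, ratio 0.474, 0.457 to 0.493). Usp18, a negative regulator of type I receptor signalling that is itself interferon-induced, fell from 55.2 to 25.8 CPM (ratio 0.468, 0.420 to 0.521). With total-count scaling these ratios were 0.516 and 0.510, within the 2-fold rule. Irf2bp2 was also within it with the expression trend removed (0.523) and with chromosome medians removed (0.504). The higher gene was Trim21, a ubiquitin ligase reported to act on several IRFs (36 and 112 counts, 2.58-fold, 1.76 to 3.87).

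Of 22 interferon-gamma and IRF1-inducible genes 20 were measured, 8 of them higher and 1 lower (median 0.78). Over all measured genes the shares were 4.27% and 3.64%. Of the 20, 4 lay under 1 CPM in the control library and were measured only through the IRF8OE library, and all 4 are among the 8 higher genes. Of the other 16, 4 were higher and 1 lower, with a median of 0.62. The 4 genes under 1 CPM in the control library include the guanylate-binding protein genes Gbp2, Gbp3 and Gbp7. Gbp3 had 9 and 52 counts (4.80-fold, 2.34 to 11.1) and Gbp7 had 15 and 79 (4.37-fold, 2.50 to 8.18). Gbp2, named after its value was seen, had 15 and 41 (2.27-fold, 1.23 to 4.41). With 1 CPM added to each level, Gbp3 was at 2.30 and Gbp7 at 2.56. The GTPase gene Ifi47 (214 and 793 counts) was 3.08-fold higher (2.64 to 3.60) and the immunoproteasome subunit gene Psmb8 (318 and 993) 2.59-fold (2.28 to 2.95). The lower gene, named after its value was seen, was the chemokine Cxcl10 (249 and 142 counts, ratio 0.474). It was at 0.516 with total-count scaling and at 0.508 with 1 CPM added to each level. Ciita, which switches on MHC class II genes, had 7 and 0 counts.

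Of 24 type I interferon-stimulated genes, the typical targets of ISGF3, 15 were measured, 1 higher and 2 lower (median 0.13). Oasl2 (18 and 73 counts) was 3.37-fold higher (1.99 to 6.00), and 2.21-fold with 1 CPM added to each level. Oasl1 fell from 26.2 to 4.45 CPM (ratio 0.170, 0.134 to 0.213) and the exonuclease gene Isg20 from 41.1 to 14.1 CPM (ratio 0.344, 0.299 to 0.394). Of 14 genes regulated by IRF8 in myeloid, B or leukaemic cells, 9 were measured, 1 higher and 2 lower (median 0.17). The transcription factor genes Klf4 (ratio 0.269, 0.250 to 0.290) and Bcl6 (0.343, 0.301 to 0.390) were lower, and the cytokine gene Il18 (18 and 47 counts) was 2.17-fold higher (1.24 to 3.97). The Il18 call was lost with an interval at an error rate of 0.001, with the expression trend removed (1.92), with chromosome medians removed (1.96) and with 1 CPM added to each level (1.59). Cybb, the phagocyte oxidase gene and a standard IRF8 target of myeloid cells, had 0 counts in both libraries, where 3 counts equal 0.173 CPM (control) and 0.143 CPM (IRF8OE).

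**Figure D5:**
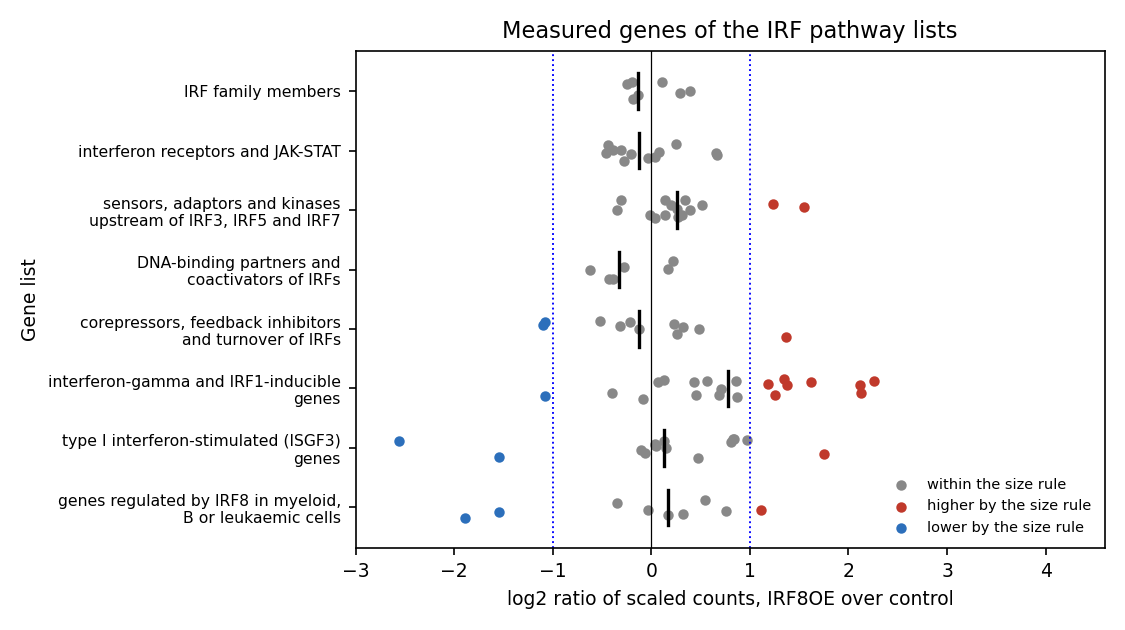
Log2 ratios (IRF8OE over control) of the measured IRF members and of the measured genes of 7 pathway lists, 1 point per gene, with medians as black bars and dotted lines at 2-fold. The IRF members lie within 0.39 of 0, while the interferon-gamma and IRF1-inducible list has a median of 0.78 and 8 points past 2-fold on the higher side, 4 of them from genes measured only through the IRF8OE library.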

How the data were processed

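The deposited table holds whole-number read counts per gene, with no normalization, for 1 library of each line, and columns were matched to samples by name. The submitters' processing notes name genome build mm10, featureCounts 1.5.0-p3 and HISAT2 2.0.5. They give no strand setting, no rule for reads with several matches and no annotation release. All 8 members had the same coordinates in the deposited table and in GENCODE M21. TMM factors (control 0.958, IRF8OE 1.04) came from edgeR 4.0.16 under R 4.3.3. Intervals were computed with scipy 1.17.1 and numpy 2.4.6 in Python 3.11.15, tables with pandas 2.3.3, the lowess trend with statsmodels 0.14.6 and plots with matplotlib 3.10.9.

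Intervals of ratios are Clopper-Pearson intervals on the share of the 2 libraries' counts, and intervals of levels are exact Poisson intervals. Both, and the limit of 3 counts for a count of 0, cover counting error only, and PCR copies are not independent molecules. No quasi-likelihood test was run and no p-value computed, since each group had 1 library.

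The genes named were the 8 members, up to 4 genes past the size rule per list, a set of pathway genes and 5 markers whatever their values, genes overlapping a member, and the nearest measured protein-coding gene on each side of Irf8. Some items are not reported here. Other genes named were chosen after their values were seen. They were the list and marker genes given as at or near 0, the measured myeloid markers, and the endothelial and stellate markers. Also among them were Krt8, Krt18, Afp, Trf, Apoa1, Serpina1a, Ttr, Tcf3, Etv6, Gbp2, Cxcl10, Psme2, and the type I interferon-stimulated genes under 1 CPM. The members, lists and rules were chosen with earlier results of these data known. With 2 libraries each gene has 1 ratio, so no genes were named for a pattern like that of a member. Promoter sequences are from RefSeq (GRCm38.p6).

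The alternatives were scaling by total counts, by DESeq2 1.42.0 size factors or by the upper quartile, a minimum of 5 CPM or none, thresholds of 1.5-fold and 4-fold, an interval at an error rate of 0.001, removal of a trend on expression (lowess, fraction 0.3) or of chromosome medians, a ratio of CPM + 1, and protein-coding genes alone.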

Additional observations from a re-analysis of the deposited data

How the results depend on the processing

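No member passed the 2-fold rule under any of the 12 alternatives. Scaling by total counts put the Irf8 ratio at 1.33, and it stayed within its main interval in the other 11. The alternative minimums, thresholds and interval and the protein-coding setting cannot change a ratio, so only the other alternatives bear on its stability. The ratios of Irf1 (1.20 to 1.43), Irf2 (0.850 to 0.949), Irf3 (0.878 to 0.955), Irf7 (0.802 to 0.992) and Irf9 (0.761 to 0.916) kept their side of 1, and that of Irf5 (0.981 to 1.18) did not. By level in the IRF8OE library Irf8 ranked 3 per kilobase of the deposited length, 1 in CPM without division by length and 1 per kilobase of the principal transcript.

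Of all measured genes, 532 were higher and 454 lower. The counts were 873 and 800 with no expression filter, 221 and 266 at 5 CPM, 1302 and 1175 at 1.5-fold, 69 and 91 at 4-fold, and 275 and 300 with a ratio of CPM + 1. Higher genes made up 54.0% of the calls, 66.1% with scaling by total counts, 41.6% with the expression trend removed and 43.1% at 4-fold. Of the pathway list genes, 13 were higher and 7 lower. The higher count was 5 at 5 CPM, 23 at 1.5-fold and 3 at 4-fold, and the lower count was 4 with scaling by total counts, 11 with no expression filter and 1 at 4-fold. The thresholds and filters change these counts by construction, and for the scalings the cause was not tested. No paired analysis was possible because each group had 1 library. Depth limits Irf7, at 41 and 45 counts, and Irf4, at 0 and 1.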

Other observations

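Among the 9 type I interferon-stimulated genes under the 1 CPM minimum, only Mx1 and Mx2 had intervals that excluded 1, and both ratios were below 1. Mx1, an antiviral GTPase gene, had 31 counts in the control library and 2 in the IRF8OE library (ratio 0.0536, 0.00621 to 0.211). Mx2 had 8 and 1 (ratio 0.104, 0.00234 to 0.774), and Ifit3 had 4 and 0. Oas3, Rsad2 and Ifi44 had more counts in the IRF8OE library, with intervals that included 1. Oas3 had 3 and 10 counts (ratio 2.77, 0.713 to 15.7), Rsad2 had 7 and 10 (ratio 1.19, 0.408 to 3.67) and Ifi44 had 0 and 4 (interval from 0.548 upward). Zbp1 had 4 and 3, and Ifit1 and Oas2 had 0 in both libraries.

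Genes near the other members gave varied medians. Within 1 Mb, the median ratio was 0.821 around Irf7 (38 measured protein-coding genes), 0.887 around Irf3 (63), 0.964 around Irf2 (13), 0.983 around Irf9 (35) and 1.05 around Irf5 (18). Of these, 35 of the 63 genes around Irf3 and 8 of the 18 around Irf5 had a ratio above that of the member. Around Irf9, 24 of the 35 did, among them the proteasome activator gene Psme2, named after its value was seen. Psme2 had 357 counts in the control library and 785 in the IRF8OE library (1.83-fold, 1.61 to 2.08). It is the nearest measured gene on 1 side that does not overlap Irf9. Rnf31, which lies between them and overlaps Irf9, was at 0.924 (0.809 to 1.06).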
